A study of Mus musculus with 18 samples.

Results

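The Zfp genes with numbers from 600 up are zinc finger genes of the mouse, and 148 of them were read by a probeset with 1 platform symbol, of 19937 genes read in this way. They were taken by their symbol alone (Zfp followed by a number of 600 or more and, for some, a letter), and each was represented by its probeset with the highest mean over all arrays. Each of 18 male mice gave hypothalamic RNA for an Affymetrix Mouse Gene 1.0 ST array of its own. The groups were 6 hypertensive BPH/2J and 6 normotensive BPN/3J mice in the active period (‘peak’ BP, 26 weeks old), and 3 BPH/2J and 3 BPN/3J mice in the inactive period (‘trough’ BP). Ages of the ‘trough’ groups are given as 18 weeks in the labels and 19 in the series text, so time of day and age cannot be told apart. Both lines are inbred Schlager strains without any treatment, and a strain difference holds every locus at which they differ. The tissue is labelled as whole hypothalamus, while the methods describe its paraventricular and dorsomedial parts being dissected out. Values are log2 signals after robust multi-array analysis (RMA), and differences are on the log2 scale with the standard error (SE) of the fit.

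Most Zfp genes encode proteins with a row of Cys-His zinc fingers that bind DNA, and many also carry a KRAB domain. The KRAB domain binds the co-repressor Trim28, which brings in Setdb1, a histone methyltransferase, and heterochromatin proteins of the Cbx family, and many targets are copies of retroviruses and other mobile elements. The genes multiplied by local duplication, so that close relatives lie side by side on a chromosome. Of the 148 genes, 147 were found in the RefSeq table by gene ID, and all 147 are listed as protein-coding. Chromosome 7 held 36, chromosome 17 held 19, chromosome 8 held 14 and chromosome 13 held 11. With gaps of at most 1 Mb allowed, 84 genes lay in 15 runs of 3 or more, 12 in pairs and 51 alone.

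RefSeq start regions (250 bases before to 50 after the transcript start, GRCm38.p6) were at hand for 128 of the 148 genes. They are printed here for the genes on which the results below turn, because in each case neighbours share most of their letters. In the first pair, of which Zfp931 rose most of the 148 genes at ‘peak’ BP in both strains, capitals mark the longest stretch that both windows hold, of 81 bases. The windows were 97.0% identical over 270 aligned bases.
Zfp931 (chr2:178078376-178078675, minus strand): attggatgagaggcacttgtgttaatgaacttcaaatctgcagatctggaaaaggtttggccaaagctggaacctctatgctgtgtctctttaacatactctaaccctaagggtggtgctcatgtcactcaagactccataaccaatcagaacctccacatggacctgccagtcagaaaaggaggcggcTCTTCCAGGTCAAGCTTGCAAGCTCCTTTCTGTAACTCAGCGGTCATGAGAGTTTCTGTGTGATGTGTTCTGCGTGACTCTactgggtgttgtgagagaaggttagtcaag
Zfp971 (chr2:178023034-178023333, plus strand): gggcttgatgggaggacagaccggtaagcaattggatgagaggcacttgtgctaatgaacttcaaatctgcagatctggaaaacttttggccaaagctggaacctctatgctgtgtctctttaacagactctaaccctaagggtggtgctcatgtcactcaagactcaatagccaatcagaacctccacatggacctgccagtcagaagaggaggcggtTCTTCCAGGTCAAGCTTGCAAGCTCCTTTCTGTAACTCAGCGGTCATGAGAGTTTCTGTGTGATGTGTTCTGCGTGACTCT

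A set of 3 neighbours on chromosome 4 follows, with capitals for the 21 bases that all of them hold. Zfp982 and Zfp979 were lower in BPH/2J at ‘peak’ BP, and Zfp985, which lies between them, was not called different. The window of Zfp979 was 88.4% identical to that of Zfp982 over 301 aligned bases and 85.5% identical to that of Zfp985 over 304. Zfp982 has 3 listed starts, and the one most like Zfp979 is shown.
Zfp982 (chr4:147492167-147492466, plus strand): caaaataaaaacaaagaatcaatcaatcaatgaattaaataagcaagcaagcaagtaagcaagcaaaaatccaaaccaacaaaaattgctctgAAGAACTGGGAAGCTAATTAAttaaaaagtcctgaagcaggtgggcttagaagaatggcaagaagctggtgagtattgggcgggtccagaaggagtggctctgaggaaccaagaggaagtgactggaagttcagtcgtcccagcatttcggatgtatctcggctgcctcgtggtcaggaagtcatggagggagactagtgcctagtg
Zfp979 (chr4:147642459-147642758, minus strand): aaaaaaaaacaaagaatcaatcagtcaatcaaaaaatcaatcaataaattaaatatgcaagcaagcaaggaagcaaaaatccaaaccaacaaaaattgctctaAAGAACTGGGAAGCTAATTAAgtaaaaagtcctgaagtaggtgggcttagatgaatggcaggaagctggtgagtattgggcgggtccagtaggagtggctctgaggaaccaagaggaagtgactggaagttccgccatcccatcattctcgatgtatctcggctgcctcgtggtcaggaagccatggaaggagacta
Zfp985 (chr4:147553027-147553326, plus strand): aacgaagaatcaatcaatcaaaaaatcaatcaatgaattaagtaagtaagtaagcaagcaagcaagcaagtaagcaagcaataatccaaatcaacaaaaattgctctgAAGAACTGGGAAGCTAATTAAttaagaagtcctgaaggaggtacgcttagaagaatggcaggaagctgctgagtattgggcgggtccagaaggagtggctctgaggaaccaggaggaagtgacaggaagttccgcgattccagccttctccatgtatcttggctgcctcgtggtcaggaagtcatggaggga

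On chromosome 17 there are 2 head-to-head pairs, Zfp942 with Zfp943 and Zfp944 with Zfp758, and no other coding gene lies within either pair. Read on opposite strands, the windows of the first pair shared 194 identical bases and those of the second shared 162. The pairs are also copies of each other, since the windows of Zfp758 and Zfp943 were 99.7% identical over 293 bases and those of Zfp942 and Zfp944 were 99.6% identical over 275. Capitals mark CACGTG, the letters known as an E-box, which all 4 windows hold. CACGTG reads the same on both strands. Where the windows of a pair overlap on the chromosome, a single site counts for both, so the 4 windows need not hold 4 separate sites.
Zfp942 (chr17:21962415-21962714, minus strand): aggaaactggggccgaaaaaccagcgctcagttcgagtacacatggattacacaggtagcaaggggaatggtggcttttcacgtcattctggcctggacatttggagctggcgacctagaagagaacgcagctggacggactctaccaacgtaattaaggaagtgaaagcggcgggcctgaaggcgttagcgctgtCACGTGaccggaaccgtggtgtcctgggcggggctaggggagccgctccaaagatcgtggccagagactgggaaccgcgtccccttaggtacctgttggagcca
Zfp758 (chr17:22361213-22361512, plus strand): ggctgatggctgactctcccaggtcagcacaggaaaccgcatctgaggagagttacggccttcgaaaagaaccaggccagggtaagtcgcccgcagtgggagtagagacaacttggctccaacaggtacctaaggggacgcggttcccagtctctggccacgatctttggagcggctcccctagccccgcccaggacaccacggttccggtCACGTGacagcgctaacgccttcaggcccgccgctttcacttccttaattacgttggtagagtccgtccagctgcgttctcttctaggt

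Which genes differed between the strains was asked at each time. At ‘peak’ BP 5 of the 148 genes passed in limma at a Benjamini-Hochberg adjusted p under 0.05, 1 higher and 4 lower in BPH/2J. Of all genes, 1.38% passed in this comparison, 0.697% higher and 0.687% lower. At ‘trough’ BP 2 of the 148 passed, both higher in BPH/2J, against 0.567% of all genes (0.381% higher). No gene passed at both times. The median difference of the 148 genes was -0.02 at ‘peak’ BP and 0.12 at ‘trough’ BP, against 0.01 over all genes at both times. The 5 genes called at ‘peak’ BP passed with any 1 of the 18 arrays left out, while at ‘trough’ BP 0 to 2 genes did.

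Zfp982 had the strongest strain difference. Its log2 signal spanned 3.77 to 4.07 with a median of 3.96 among BPH/2J ‘peak’ mice and 4.80 to 5.72 with a median of 5.29 among BPN/3J ‘peak’ mice. The ‘trough’ mice read 3.70, 3.79 and 3.85 in BPH/2J, against 3.98, 4.25 and 4.64 in BPN/3J. Every BPH/2J mouse was thus below every BPN/3J mouse of the same time, as for 0.798% of all genes at ‘peak’ BP and 9.33% at ‘trough’ BP, where groups of 3 are often apart. The difference was -1.31 at ‘peak’ BP (SE 0.14, adjusted p = 1.76e-05 in limma) and -0.51 at ‘trough’ BP (SE 0.19, adjusted p = 0.385), where it did not pass. At ‘peak’ BP the gene was thus 2.48-fold lower in BPH/2J. Zfp982 was also the gene nearest to a difference at both times among those lower in BPH/2J, and with array weights it passed at both (-1.34 and -0.49, limma adjusted p = 3.59e-06 and 0.00709).

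Zfp979, listed earlier as Ssm1b, a KRAB zinc finger gene of a locus known for strain-specific methylation of a transgene, spanned 2.74 to 3.02 (median 2.83) among BPH/2J ‘peak’ mice. Among BPN/3J ‘peak’ mice it spanned 3.08 to 4.13 (median 3.84), without overlap. The ‘trough’ mice read 2.61, 2.71 and 2.85 in BPH/2J, against 2.72, 2.90 and 3.22 in BPN/3J, and these overlapped. The difference was -0.91 at ‘peak’ BP (SE 0.14, limma adjusted p = 0.000884) and -0.22 at ‘trough’ BP (SE 0.19, adjusted p = 0.697). This probeset is dim, with a mean at the 5.79th percentile of all probesets, and Zfp982 (20.4th) and Zfp950 (33.0th) are also under the 40th. When probesets under the 40th percentile were left out, these 3 genes were not tested and 2 of the 5 calls at ‘peak’ BP were made, 1 in each direction.

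Zfp991 spanned 5.15 to 5.83 (median 5.63) among BPH/2J ‘peak’ mice and 5.93 to 6.64 (median 6.29) among BPN/3J ‘peak’ mice. It read 5.56, 5.64 and 5.64 among BPH/2J ‘trough’ mice and 5.55, 5.66 and 5.97 among BPN/3J ‘trough’ mice. The groups were apart at ‘peak’ BP (-0.70, SE 0.12, limma adjusted p = 0.00464) and overlapped at ‘trough’ BP (-0.11, SE 0.18, adjusted p = 0.839). Zfp991, Zfp982 and Zfp979 belong to 1 run of 7 members on chromosome 4, in the order Zfp980, Zfp600, Zfp991, Zfp982, Zfp985, Zfp979 and Zfp933. Between Zfp991 and Zfp982 there is 1 other coding gene, Zfp988, and between Zfp982, Zfp985 and Zfp979 there are 0. Zfp985 spanned 3.40 to 4.27 among BPH/2J ‘peak’ mice and 3.50 to 4.19 among BPN/3J ‘peak’ mice (-0.09, SE 0.14, adjusted p = 0.923). The 3 genes of this run that passed were lower in BPH/2J, and Zfp985, whose start region resembles theirs where both are known, had overlapping levels in the strains. Its probeset is dim too (12.1th percentile), and its second, dimmer probeset gave -0.16 between the strains at ‘peak’ BP (adjusted p = 0.503) and rose in BPN/3J at ‘peak’ BP (0.33, SE 0.09, adjusted p = 0.0186). In addition, 2 of 4 probesets whose several symbols include Zfp991 were lower in BPH/2J at ‘peak’ BP (-1.01 and -0.50, limma adjusted p = 0.0132 and 0.0175). The first of these also carries Zfp985. The other 2 of the 4 carry Zfp985 and Zfp982 as well, and did not pass (0.02 and -0.24, limma adjusted p = 0.99 and 0.278). How such probesets split their signal between genes is not known.

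Zfp950 on chromosome 19, which was named Zfp826 before, spanned 4.66 to 5.05 (median 4.99) among BPH/2J ‘peak’ mice and 5.33 to 6.75 (median 5.91) among BPN/3J ‘peak’ mice. The ‘trough’ mice read 4.63, 4.73 and 5.08 in BPH/2J, against 4.81, 4.85 and 5.02 in BPN/3J. Only the BPN/3J ‘peak’ mice stood apart, with a strain difference of -0.94 at ‘peak’ BP (SE 0.18, limma adjusted p = 0.00874) and -0.08 at ‘trough’ BP (SE 0.25, adjusted p = 0.932). Of 3 probesets that Zfp950 shares with other symbols none passed at ‘peak’ BP, and the one shared with Arid4b alone gave -0.61 (adjusted p = 0.111).

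Zfp661 on chromosome 2 was the 1 gene higher in BPH/2J at ‘peak’ BP. It spanned 6.48 to 6.83 (median 6.71) among BPH/2J ‘peak’ mice and 5.35 to 6.09 (median 5.57) among BPN/3J ‘peak’ mice. It read 6.65, 6.67 and 6.82 among BPH/2J ‘trough’ mice and 5.98, 6.04 and 6.38 among BPN/3J ‘trough’ mice. As for Zfp982, the strains did not overlap at either time, here with BPH/2J above, as for 0.903% of all genes at ‘peak’ BP and 13.3% at ‘trough’ BP. The difference was 1.05 at ‘peak’ BP (SE 0.12, limma adjusted p = 4.85e-05) and 0.58 at ‘trough’ BP (SE 0.17, adjusted p = 0.216), the first being a 2.07-fold difference. With array weights it passed at both times, as the only other gene to do so (1.11 and 0.65, limma adjusted p = 4.21e-06 and 0.000359). As for Zfp982, the BPN/3J ‘trough’ mean in that fit rests mostly on mouse 3. Within BPN/3J, Zfp661 fell at ‘peak’ BP (-0.49, SE 0.15, adjusted p = 0.0231, and 0.15 and 0.0526 without BPN/3J ‘trough’ mouse 1 or 3, and 0.0505 with median centring), and in BPH/2J its difference was -0.02 (SE 0.15, adjusted p = 0.96).

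The 2 genes called at ‘trough’ BP were Zfp810 and Zfp830. Zfp810 on chromosome 9 read 7.31, 7.45 and 7.47 among BPH/2J ‘trough’ mice and 6.67, 6.87 and 7.03 among BPN/3J ‘trough’ mice (0.55, SE 0.11, limma adjusted p = 0.035). At ‘peak’ BP it spanned 7.52 to 7.77 in BPH/2J and 7.31 to 7.71 in BPN/3J (0.17, SE 0.08, adjusted p = 0.489). Zfp830, formerly Omcg1, a nuclear protein that the early mouse embryo needs, read 7.01, 7.11 and 7.56 among BPH/2J ‘trough’ mice and 6.15, 6.17 and 6.31 among BPN/3J ‘trough’ mice (1.02, SE 0.22, adjusted p = 0.049). Its difference at ‘peak’ BP was 0.50 (SE 0.16, adjusted p = 0.185), with ranges of 6.73 to 7.52 in BPH/2J and 6.25 to 7.04 in BPN/3J. Neither call held with BPH/2J ‘trough’ mouse 1, 2 or 3 or BPN/3J ‘trough’ mouse 1 or 3 left out, when Zfp810 had adjusted p from 0.0721 to 0.215 and Zfp830 from 0.0888 to 0.322. Without BPN/3J ‘trough’ mouse 4, Zfp830 had an adjusted p of 0.0705. Without single ‘peak’ mice, Zfp810 was just short of the threshold for BPH/2J mouse 5 and BPN/3J mouse 8 (0.0512 and 0.0526), and Zfp830 for BPH/2J mice 4 to 8 and BPN/3J mice 6 to 8 (0.0505 to 0.0721).

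**Figure D1:**
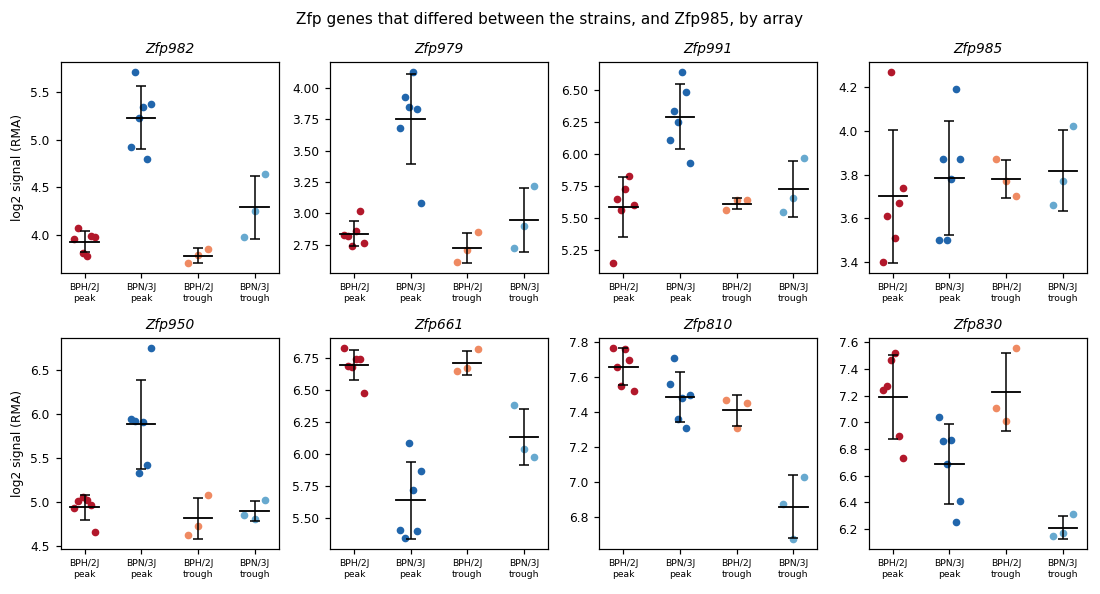
Log2 signal (RMA, vertical axis) of the 7 genes that differed between the strains and of Zfp985, for each array of the 4 groups, with the mean (line) and SD (bars) of 6 ‘peak’ or 3 ‘trough’ mice. Zfp982 and Zfp661 have no overlap between the strains at either time, and Zfp950 is high among BPN/3J ‘peak’ mice alone.

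Of the 31 probesets with several symbols that include a gene of this number range, 6 were lower and 0 higher in BPH/2J at ‘peak’ BP, and 1 was lower at ‘trough’ BP. Of all genes with 1 symbol, 0.687% were lower at ‘peak’ BP and 0.186% at ‘trough’ BP. Each of the 6 carried Gm15446 with Zfp932, Zfp991 among others, or Zfp931 with Zfp971 among others. Probesets that share symbols are not separate results. The one that was lower at both times carried Gm15446 and Zfp932, a neighbouring pair of KRAB zinc finger genes known to silence endogenous retroviruses in mouse embryonic stem cells. It was -1.36 at ‘peak’ BP and -1.36 at ‘trough’ BP (limma adjusted p = 1.19e-05 and 0.00148). It is not counted among the 148 because its signal cannot be given to either gene. A second probeset of the same pair was -0.98 at ‘peak’ BP (adjusted p = 7.77e-05) and -0.55 at ‘trough’ BP (adjusted p = 0.232). Probesets that carry Zfp932 among 5 symbols, Zfp950 included, did not pass at either time. They gave -0.20 and -0.14 at ‘peak’ BP (limma adjusted p = 0.877 and 0.769) and 0.48 and 0.13 at ‘trough’ BP (0.625 and 0.793).

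The comparison of ‘peak’ with ‘trough’ BP, made in each strain, gave far more calls. In BPH/2J 38 of 148 passed, 28 higher and 10 lower at ‘peak’ BP, against 10.2% of all genes (4.63% higher, 5.61% lower). In BPN/3J 78 passed, 69 higher and 9 lower, against 28.7% of all genes (13.9% higher, 14.7% lower). The 148 genes had a median difference of 0.16 in BPH/2J and of 0.32 in BPN/3J, where the medians of all genes were -0.02 and -0.04. The lower and upper quartiles of the difference were -0.01 and 0.40 in BPH/2J and -0.02 and 0.71 in BPN/3J. Passing in both strains with the same sign were 32 genes, 27 higher and 5 lower, which are 84.2% of those called in BPH/2J and 41.0% of those called in BPN/3J. None passed with opposite signs.

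The count in BPH/2J rested on few mice. It was 8 without BPH/2J ‘trough’ mouse 1, 17 without mouse 2 and 19 without mouse 3, and 24, 18 and 18 without BPH/2J ‘peak’ mice 4, 5 and 7. The count in BPN/3J was 49 without BPN/3J ‘trough’ mouse 1. With each array centred on its median, 22 genes passed in BPH/2J, of which 86.4% were higher, against 73.7% of the 38. In BPN/3J 72 were then higher and 2 lower, and in fits of 2 groups 53 were higher and 2 lower, against 9 lower without these changes.

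**Figure D2:**
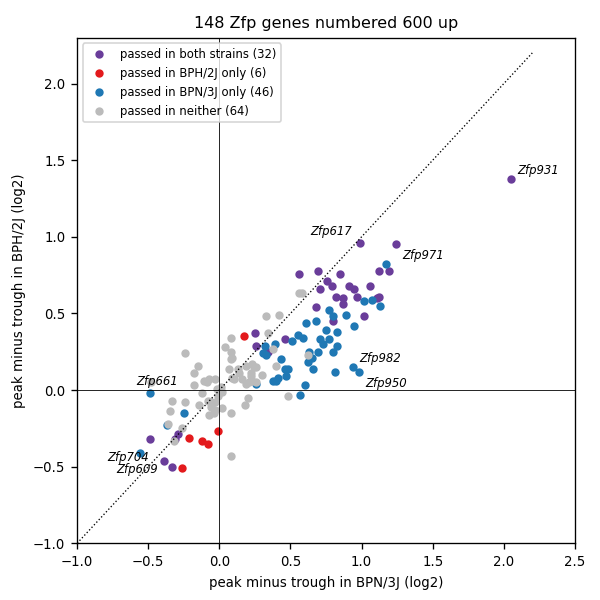
Difference of ‘peak’ minus ‘trough’ BP (log2) in BPH/2J (vertical axis) and BPN/3J (horizontal axis) for the 148 genes, coloured by where the difference passed. The dotted line marks equal differences, and Zfp931 is highest on both axes.

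Zfp931 rose most in both strains. It spanned 7.38 to 8.31 (median 7.87) among BPH/2J ‘peak’ mice, against 6.05, 6.70 and 6.77 among BPH/2J ‘trough’ mice. In BPN/3J it spanned 6.95 to 8.03 (median 7.73) at ‘peak’ BP, against 5.0, 5.56 and 6.22 at ‘trough’ BP. The times did not overlap in either strain, and the differences were 1.38 in BPH/2J (SE 0.28, limma adjusted p = 0.00594) and 2.05 in BPN/3J (SE 0.28, adjusted p = 0.000287), a fold of 2.60 and 4.15. Of all genes, 9.07% had every ‘peak’ mouse above every ‘trough’ mouse in BPH/2J and 12.5% in BPN/3J. In BPH/2J the difference was 1.15 with an adjusted p of 0.0574 without BPH/2J ‘trough’ mouse 1.

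Zfp971 is the next coding gene on chromosome 2, and its start region was 97.0% identical to that of Zfp931, as given above. Other windows were not compared with that of Zfp931. Zfp971 spanned 9.64 to 10.41 (median 10.13) among BPH/2J ‘peak’ mice, against 8.91, 9.06 and 9.36 in the ‘trough’ mice of the strain. In BPN/3J it spanned 9.07 to 10.04 (median 9.72) at ‘peak’ BP, against 8.28, 8.40 and 8.50 at ‘trough’ BP. The gene rose in both strains without overlap, by 0.95 in BPH/2J (SE 0.20, limma adjusted p = 0.00708, and 0.0575 without BPH/2J ‘trough’ mouse 1) and by 1.24 in BPN/3J (SE 0.20, adjusted p = 0.000832). Of 3 probesets that carry Zfp931 and Zfp971 among 14 or more symbols, all rose at ‘peak’ BP in both strains, by 0.47 to 0.97 in BPH/2J and 0.81 to 1.13 in BPN/3J. Between the strains 2 of these 3 were lower in BPH/2J at ‘peak’ BP (-0.62 and -0.59, adjusted p = 0.00244 and 0.000343), where Zfp931 and Zfp971 themselves had 0.23 and 0.44 (0.833 and 0.309). Signals of such near-identical copies may be mixed on the array.

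The 4 genes of the head-to-head pairs on chromosome 17 had like differences. Zfp942 spanned 6.60 to 7.36 among BPH/2J ‘peak’ mice, against 6.13, 6.5 and 6.52 at ‘trough’ BP. In BPN/3J it spanned 6.84 to 7.43 at ‘peak’ BP, against 5.86, 5.95 and 6.06 at ‘trough’ BP. In BPH/2J the difference was 0.61 for Zfp942 (limma adjusted p = 0.0308), 0.48 for Zfp944 (0.0336) and 0.78 for Zfp758 (0.0344), and it did not pass for Zfp943 (0.55, 0.0544). In BPN/3J all 4 rose, Zfp942 by 1.12 (SE 0.17, adjusted p = 0.000489), Zfp943 by 1.13 (0.17, 0.000536), Zfp944 by 1.02 (0.13, 0.00022) and Zfp758 by 1.12 (0.22, 0.00259). The ‘peak’ and ‘trough’ mice of BPN/3J did not overlap for any of the 4, as for 12.5% of all genes with ‘peak’ above. The call of Zfp758 in BPH/2J was lost without BPH/2J ‘trough’ mouse 1 (adjusted p = 0.153) or 2 (0.147) and without BPH/2J ‘peak’ mouse 4, 5, 6 or 7 (0.0525 to 0.0714).

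Others that rose in both strains included Zfp617 on chromosome 8 (0.96 in BPH/2J and 0.99 in BPN/3J, SE 0.21 each) and Zfp935 on chromosome 13 (0.78 in BPH/2J and 1.19 in BPN/3J, SE 0.21 each). Zfp617 spanned 6.85 to 7.57 among BPH/2J ‘peak’ mice, against 5.98, 6.36 and 6.51 among BPH/2J ‘trough’ mice. In BPN/3J it spanned 6.59 to 7.26 at ‘peak’ BP, against 5.53, 5.93 and 6.59 at ‘trough’ BP. The limma adjusted p of Zfp617 in BPH/2J was 0.00876 (0.0653 without BPH/2J ‘trough’ mouse 3), with 0.00376 in BPN/3J. Its highest BPN/3J ‘trough’ mouse reached the lowest ‘peak’ mouse, and in BPH/2J the times were apart. For Zfp935 the adjusted p in BPH/2J was 0.0291, with 0.00147 in BPN/3J, and its call in BPH/2J was lost without any 1 of the 3 BPH/2J ‘trough’ mice (0.0713 to 0.14) and without BPH/2J ‘peak’ mouse 5 or 7 (0.0631 and 0.0601). Zfp975 on chromosome 7 rose in BPN/3J (1.17, SE 0.29, adjusted p = 0.00927, and 0.0668 without BPN/3J ‘trough’ mouse 3) and had a difference of 0.82 in BPH/2J (SE 0.29, adjusted p = 0.0886). Zfp809, which silences retroviruses in mouse embryonic stem cells, rose in BPN/3J (0.41, adjusted p = 0.00576) with a difference of 0.08 in BPH/2J (adjusted p = 0.647). The X-linked Zfp711, a partner of a histone demethylase that is mutated in human intellectual disability, rose in BPH/2J (0.54, adjusted p = 0.0174) and in BPN/3J (0.68, adjusted p = 0.00264).

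The 3 strain genes of chromosome 4 and Zfp950 also rose in BPN/3J at ‘peak’ BP, by 0.94 for Zfp982 (SE 0.17, limma adjusted p = 0.00152), 0.81 for Zfp979 (SE 0.17, 0.00375), 0.57 for Zfp991 (SE 0.15, 0.0149) and 0.98 for Zfp950 (SE 0.22, 0.00535). In BPH/2J the same genes had differences of 0.15, 0.12, -0.03 and 0.12, and none passed (adjusted p of 0.657 to 0.948). The strain comparison at ‘peak’ BP and the time comparison in BPN/3J share the BPN/3J ‘peak’ mice, so these values are not independent. Probesets that Zfp950 shares with other symbols had differences of 0.60, 0.58 and 0.72 in BPH/2J, and the last passed (limma adjusted p = 0.00393). In BPN/3J the same probesets had 1.27, 1.26 and 0.98.

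The 5 genes that fell in both strains were Zfp704, Zfp609, Zfp628, Zfp651 and Zfp646, with smaller differences. With each array centred on its median none of the 5 passed in both strains, as Zfp628, Zfp651 and Zfp646 did not pass in BPH/2J (limma adjusted p = 0.149 to 0.216) and Zfp704, Zfp609, Zfp651 and Zfp646 did not pass in BPN/3J (0.0652 to 0.192). Zfp704, listed earlier as the glucocorticoid-induced Gig1, spanned 7.97 to 8.15 (median 8.06) among BPH/2J ‘peak’ mice, against 8.47, 8.51 and 8.58 among BPH/2J ‘trough’ mice. In BPN/3J it spanned 7.81 to 8.16 (median 8.11) at ‘peak’ BP, against 8.22, 8.51 and 8.63 at ‘trough’ BP. It fell without overlap by 0.46 in BPH/2J (SE 0.09, limma adjusted p = 0.00642) and by 0.39 in BPN/3J (SE 0.09, adjusted p = 0.00896). Of all genes, 11.6% had every ‘peak’ mouse below every ‘trough’ mouse in BPH/2J and 11.2% in BPN/3J. Zfp609, which acts with the cohesin loader in mouse neural progenitors, fell by 0.50 in BPH/2J (SE 0.09, adjusted p = 0.0025) and by 0.33 in BPN/3J (SE 0.09, adjusted p = 0.0141, and 0.0711 and 0.0513 without BPN/3J ‘trough’ mouse 3 or 4). It spanned 7.76 to 7.97 among BPH/2J ‘peak’ mice, against 8.26, 8.44 and 8.47 among BPH/2J ‘trough’ mice. In BPN/3J it spanned 7.88 to 8.18 at ‘peak’ BP, against 8.24, 8.48 and 8.50 at ‘trough’ BP, and the times were apart in both strains. Zfp628, Zfp651 and Zfp646 fell by 0.29 to 0.49, and each lost its call in BPH/2J without any 1 of the 3 BPH/2J ‘trough’ mice (adjusted p = 0.0835 to 0.184) and without further single arrays. In BPN/3J, Zfp651 and Zfp646 lost theirs without BPN/3J ‘trough’ mouse 3 or 4 (0.0573 to 0.145).

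In BPH/2J the lowest difference was that of Zfp827, which recruits a chromatin remodelling complex to telomeres in human cells (-0.51, SE 0.13, limma adjusted p = 0.0225, against -0.26 and 0.155 in BPN/3J). Its adjusted p was 0.103 and 0.106 without BPH/2J ‘trough’ mouse 1 or 3. Zfp652 (-0.35), Zfp687 (-0.33), Zfp710 (-0.31, adjusted p = 0.049) and Zfp664 (-0.27) also fell in BPH/2J and did not pass in BPN/3J. A second probeset of Zfp664 gave 0.06 in BPH/2J (adjusted p = 0.853). Without BPH/2J ‘trough’ mouse 1 the adjusted p was 0.14 for Zfp652 and 0.0796 for Zfp687, and it was 0.0612 for Zfp652 without mouse 2 and 0.0967 for Zfp687 without mouse 3. In BPN/3J the lowest was Zfp775 (-0.56, SE 0.15, adjusted p = 0.0126, and 0.0706 without BPN/3J ‘trough’ mouse 1), with -0.41 in BPH/2J (adjusted p = 0.0932). Zfp629 (-0.37) and Zfp768 (-0.25) fell in BPN/3J as well. The call of Zfp629 (adjusted p = 0.0477) was lost with most single arrays left out, at adjusted p up to 0.15.

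**Figure D3:**
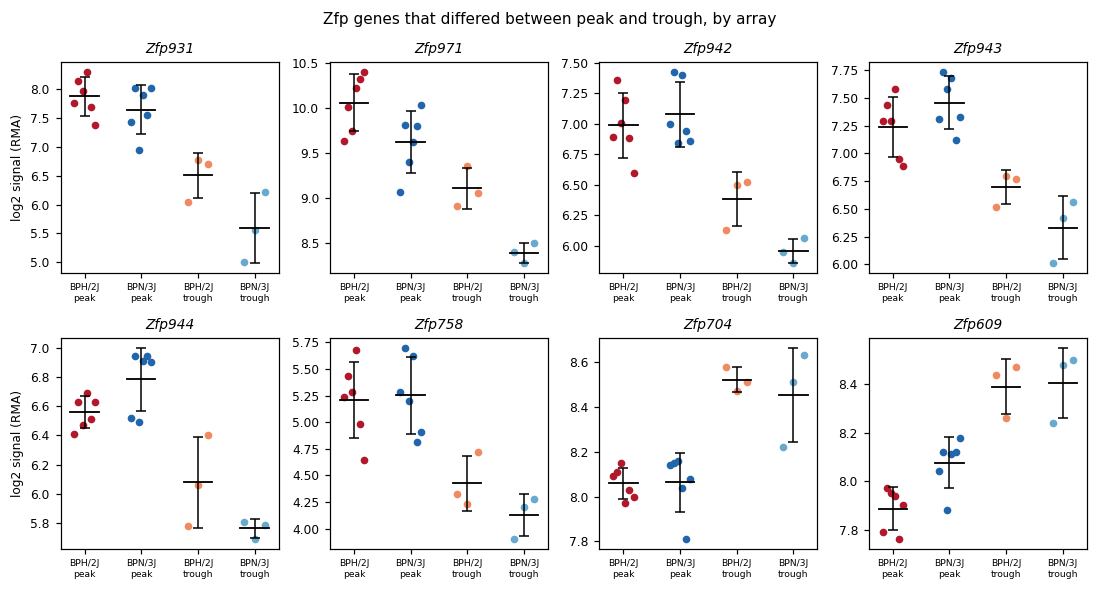
Log2 signal (RMA, vertical axis) of 6 genes that were higher at ‘peak’ BP in BPN/3J and 2 that were lower (Zfp704 and Zfp609), for each array of the 4 groups, with the mean (line) and SD (bars) of 6 ‘peak’ or 3 ‘trough’ mice. Both times are apart in BPN/3J for all 8 genes, as for 12.5% of all genes with ‘peak’ above and 11.2% with ‘peak’ below.

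Rises and falls were counted by position, and differences between positions were not tested. In the 15 runs of 3 or more, 19 of 84 genes rose and 2 fell in BPH/2J, and 43 rose and 5 fell in BPN/3J (51.2% and 5.95%). Of the 12 genes in pairs, 2 rose in BPH/2J and 7 rose in BPN/3J (58.3%), and 0 fell in either. Of the 51 genes that lay alone, 7 rose and 8 fell in BPH/2J, and 19 rose and 4 fell in BPN/3J (37.3% and 7.84%). The longest run, 12 genes on chromosome 17 with Zfp942 to Zfp758 in its middle, held 5 that rose in BPH/2J (median difference 0.51) and 10 that rose in BPN/3J (median 0.85). A run of 9 on chromosome 13, which holds Zfp729a, listed earlier as Rslcan3, had 3 that rose in BPH/2J and 6 in BPN/3J. All 3 genes of a run on chromosome 10 (Zfp781, Zfp873 and Zfp938) rose in both strains, with differences from 0.60 to 0.78 in BPH/2J and from 0.69 to 0.87 in BPN/3J. The run of 9 on chromosome 7 from Zfp771 to Zfp646 held 1 that rose and 1 that fell in BPH/2J and 0 that rose and 3 that fell in BPN/3J, and the run of 7 on chromosome 4 held 0 called genes in BPH/2J and 3 that rose in BPN/3J. Neighbours of like sequence may share probe signal, so the genes of a run are not independent.

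**Figure D4:**
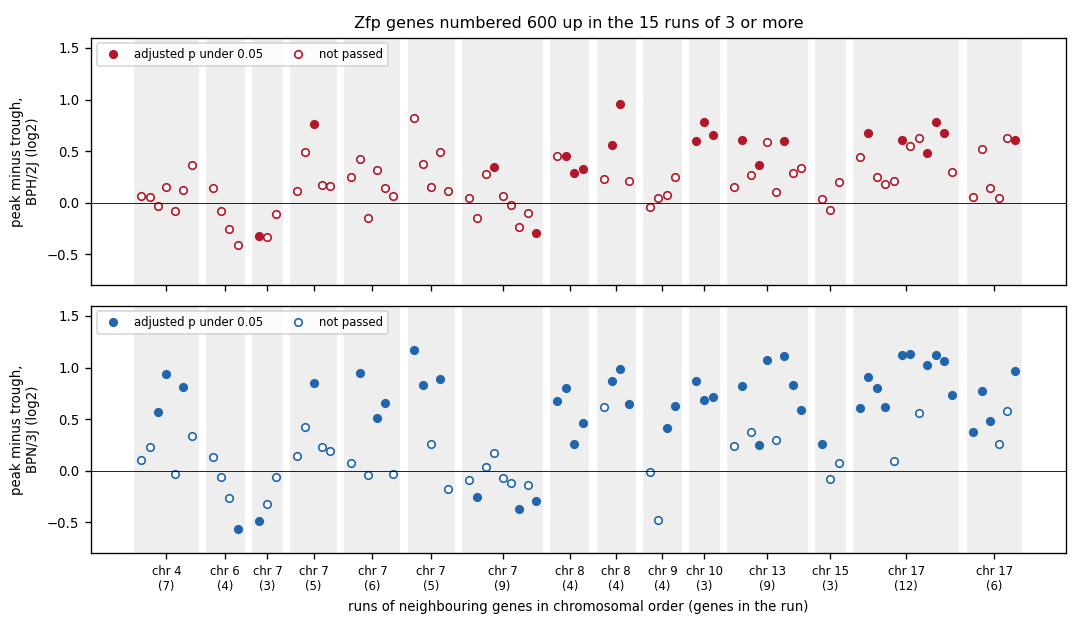
Difference of ‘peak’ minus ‘trough’ BP (log2, vertical axis) in BPH/2J (above) and BPN/3J (below) for the 84 genes of the 15 runs, in chromosomal order along the horizontal axis, with filled points for an adjusted p under 0.05. The runs of chromosomes 8, 10, 13 and 17 lie mostly above 0, and the run of 9 on chromosome 7 lies on both sides of it.

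The start regions were searched on both strands for short motifs. CACGTG was in 14 of 157 windows of the 148 genes (8.92%), in 8 of 77 windows of genes that rose in BPN/3J (10.4%) and in 6 of 80 windows of the others (7.50%), against 7.15% of all 32851 windows of this length. CCAAT was in 49 of 77 windows of genes that rose in BPN/3J (63.6%) and in 32 of 80 of the others (40%), against 37.4% of all windows. GGGCGG was in 30 of 77 windows (39.0%) and 40 of 80 (50%) of these, against 35.7% of all. TTATGNAA was in 2 of 157 windows of the 148 genes (1.27%) and TGACGTCA in 4 (2.55%), against 3.38% and 1.79% of all windows. None of these motifs holds another. The median number of CG pairs per window was 10 for genes that rose in BPN/3J and 17 for the others, against 7 over all windows. The 8 windows with CACGTG among genes that rose in BPN/3J include the 4 of the head-to-head pairs. There a site may be counted for both genes of a pair. Windows of neighbours can be copies, as shown above, and a match of letters describes the window and no binding.

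KRAB proteins act through co-repressor genes. Of 46 listed ones 41 were measured, and 0 passed between the strains at either time. In BPH/2J 4 were higher and 7 lower at ‘peak’ BP, and in BPN/3J 7 were higher and 7 lower, with medians of -0.05 and 0.11. These are 9.76% higher and 17.1% lower in BPH/2J (4.63% and 5.61% of all genes) and 17.1% in each direction in BPN/3J, near the 13.9% and 14.7% of all genes. Trim28, to which the KRAB domain binds, fell in BPH/2J (-0.42, limma adjusted p = 0.00462) and in BPN/3J (-0.44, adjusted p = 0.0018). Cbx3, a heterochromatin protein, rose in BPH/2J (0.71, adjusted p = 0.00318) and in BPN/3J (0.87, adjusted p = 0.000503). Morc3, a chromatin ATPase, also rose in BPH/2J (0.47, adjusted p = 0.0217) and in BPN/3J (0.83, adjusted p = 0.000436). Chd4, the helicase of a deacetylase complex, fell in BPH/2J (-0.38, adjusted p = 0.00687) and had -0.11 in BPN/3J (adjusted p = 0.325). For Setdb1 the difference was -0.11 in BPH/2J (adjusted p = 0.618) and -0.04 in BPN/3J (adjusted p = 0.797).

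The 193 measured Zfp genes with numbers under 600 are the set nearest in name, and relatedness by sequence was not compared. Of these 19 passed in BPH/2J (12 higher, 7 lower) and 83 in BPN/3J (70 higher, 13 lower), with medians of 0.07 and 0.18. In BPH/2J this is 9.84%, near the 10.2% of all genes, and in BPN/3J it is 43.0%, against 28.7%. Between the strains 5 passed at ‘peak’ BP (2.59%, against 1.38% of all genes) and 2 at ‘trough’ BP (1.04%, against 0.567%). A difference between the higher-numbered and lower-numbered genes was not tested.

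Whether a strain difference changed with time was tested by d, obtained by taking the strain difference of the ‘trough’ mice from that of the ‘peak’ mice, each as BPH/2J minus BPN/3J. None of the 148 genes and 0% of all genes passed in limma, where 19 of the 148 had an unadjusted p under 0.05, against 1641 of the 19937. The median d was -0.12, and 107 of the 148 genes had a negative d. Over all genes the median d was -0.0, and 10090 of 19937 were negative. For the Zfp genes numbered under 600 the median d was -0.14, with 141 of 193 negative. For the co-repressor genes it was -0.1, with 32 of 41 negative, so this lean is not particular to the 148 genes. By unadjusted p the first genes with a negative d were Zfp729a (-0.54, SE 0.16), Zfp982 (-0.80, SE 0.24) and Zfp846 (-0.45, SE 0.15), and those with a positive d were Zfp661 (0.48, SE 0.21), Zfp750 (0.31, SE 0.13) and Zfp648 (0.47, SE 0.23). Their adjusted p spanned 0.589 to 0.597. Zfp729a read 8.14, 8.25 and 8.28 among BPH/2J ‘trough’ mice and 7.60, 7.97 and 8.02 among BPN/3J ‘trough’ mice, while the ‘peak’ mice overlapped (8.27 to 8.66 in BPH/2J and 8.47 to 8.85 in BPN/3J). For Zfp950, d was -0.86 (SE 0.31, adjusted p = 0.589). Zfp825 had a d of -0.06 at its brighter probeset (SE 0.21, adjusted p = 0.949) and of -0.61 at the other (SE 0.19, adjusted p = 0.589), and both probesets rose at ‘peak’ BP in both strains. With array weights, which favour BPN/3J ‘trough’ mouse 3 as given above, 7 genes passed for d, all negative, among them Zfp982, Zfp950 and Zfp729a. The larger number of rises in BPN/3J is hence not shown to be a difference between the strains.

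The mean deviation of the 148 genes from their own means summarises each array. It spanned -0.01 to 0.17 among BPH/2J ‘peak’ mice, 0.01 to 0.21 among BPN/3J ‘peak’ mice, -0.17 to -0.07 among BPH/2J ‘trough’ mice and -0.35 to -0.15 among BPN/3J ‘trough’ mice. All ‘peak’ arrays were above all ‘trough’ arrays, with BPN/3J ‘trough’ mouse 1 lowest. Within the ‘peak’ groups, BPH/2J mice 8 and 9 and BPN/3J mice 10 and 11 were lowest, and without these 4 mice 60 genes passed in BPH/2J and 96 in BPN/3J. The arrays' median signal spanned 6.17 to 6.37 at ‘peak’ BP and 6.27 to 6.42 at ‘trough’ BP.

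Of 19 hypothalamic genes 18 were measured, with Crh lowest at the 49.8th percentile of signal and Pmch highest at the 99.5th, so none of the 18 was among the dim probesets. Of the 18, 2 were higher and 0 lower at ‘peak’ BP in BPH/2J, and 0 were higher and 2 lower in BPN/3J. Their mean deviation spanned -0.11 to 0.43 among BPH/2J and -0.55 to 0.42 among BPN/3J ‘peak’ mice. Over 7 choroid plexus genes, of which 0 passed between the times, it spanned -1.16 to 1.46 and -1.14 to 1.67 in these groups. All 10 oligodendrocyte genes measured had a positive strain difference at ‘trough’ BP, of which 0 passed. Some markers of other cells also passed between the times. Of the meningeal genes 0 were higher and 2 lower at ‘peak’ BP in either strain, and of the endothelial genes 0 were higher and 2 lower in BPH/2J and 1 in each direction in BPN/3J. Of 8 genes of smooth muscle and pericytes, 0 were higher and 3 lower in BPH/2J (median difference -0.58), and 1 was higher and 2 lower in BPN/3J (median -0.17). The same score over 8 of 8 meningeal genes spanned -0.52 to 0.46 among BPH/2J ‘peak’ mice and -0.69 to 0.83 among BPN/3J ‘peak’ mice, against 0.16 to 0.49 among BPH/2J and 0.21 to 0.26 among BPN/3J ‘trough’ mice. Over 7 of 8 endothelial genes it spanned -0.15 to 0.16 among BPH/2J ‘peak’ mice and 0.25 to 0.30 in the ‘trough’ mice of the strain, and -0.27 to 0.21 among BPN/3J ‘peak’ mice and -0.16 to -0.04 in the ‘trough’ mice. Over 8 of 8 genes of smooth muscle and pericytes it spanned -0.24 to 0.20 among BPH/2J ‘peak’ mice, wholly below the 0.28 to 0.48 of the ‘trough’ mice, and -0.27 to 0.36 among BPN/3J ‘peak’ mice, overlapping the 0.00 to 0.28 of the ‘trough’ mice. Of 13 neuronal genes measured of 13, 1 was higher and 0 lower in BPH/2J and 1 higher and 3 lower in BPN/3J, and their score lay between -0.16 and 0.10 on all arrays. Of 7 pituitary genes measured, 4 were lower at ‘peak’ BP in BPN/3J, where BPN/3J ‘trough’ mouse 3 had a score of 2.14. BPN/3J ‘trough’ mice 1 and 4 had 0.17 and 0.29. Mouse 3 is also the one that the array weights favour. The part of these cell types in the time differences was not tested, and in bulk tissue fewer cells of a type and less RNA per cell cannot be told apart.

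**Figure D5:**
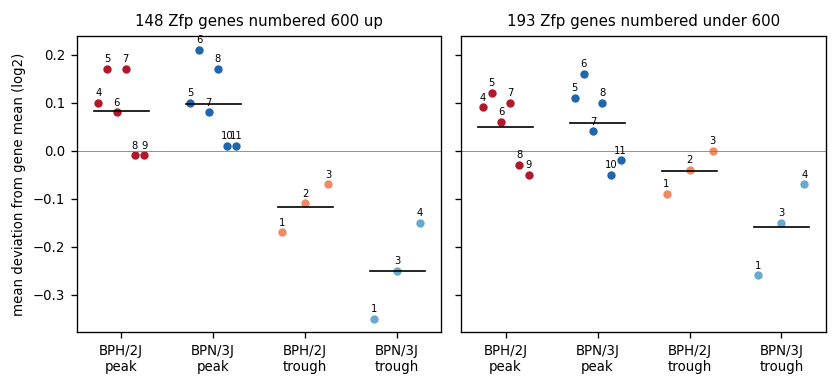
Mean deviation from the gene means (log2, vertical axis) for each array, over the 148 genes numbered 600 up (left) and the 193 numbered under 600 (right), with the mouse number beside each point and the group mean as a line. In the left panel every ‘peak’ array lies above every ‘trough’ array.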

How the data were processed

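RNA of single mice was hybridized to Affymetrix arrays without pooling. The deposited log2 signals of 34760 probesets, with 0 missing, were made by the authors with RMA. Their software versions are not given in the sources used. RMA sets values relative to the other arrays, so a change shared by all genes would not be seen. Precision is limited by the number of arrays.

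Samples were grouped by title. Another label names the BPN/3J ‘trough’ mice BPH/2J, in which case titles took precedence. Of the probesets, 21640 have 1 platform symbol, 1321 have several and 11799 have none. The 148 genes have 156 such probesets, with several for 7 genes, and 26 genes are under the 40th percentile of signal. Order on chromosomes and earlier symbols come from RefSeq. Protein sequences were not used here, so fingers and KRAB domains were not counted.

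Differences were fitted in R 4.3.3 with limma 3.58.1 as 1 model of 4 group means (14 residual and 2.94 prior degrees of freedom), with Benjamini-Hochberg adjustment across the 34760 probesets of a comparison. Shares of all genes are over 19937 genes with 1 probeset each. The procedure was tested on simulated data. Start regions were aligned locally with Biopython 1.88, and figures were drawn with matplotlib 3.10.9 in Python 3.11.15. The members, gene lists and tests were chosen with earlier results of these data known.

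Genes were named by rule. They were all genes called at both times, up to 4 per direction of each strain comparison, up to 5 per direction of each time comparison and of both together, 3 per direction by p for d, and Zfp825 and Zfp826, which the study lists. Zfp985, Zfp942, Zfp944, Zfp809, Zfp711, Zfp710, Zfp664, Zfp768, the genes that mark the runs of chromosomes 4, 7 and 10, Setdb1 and the probesets with several symbols were added after their values were seen. Alternatives were quantile normalization, median centring, leaving out dim probesets, a trend and robust prior, array weights, fits of 2 groups, the mean of a gene's probesets, 1 probeset per gene, a block for the mouse number, leaving out the 4 higher-numbered ‘peak’ mice, and leaving out each array.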

Additional observations from a re-analysis of the deposited data

Results flagged for a closer look

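Among 58 groups of 6 ‘peak’ mice (29 genes in both strains), 4 held 1 array far from the other 5, where chance gives about 1 in 20 groups. Zfp651 was 8.25 in BPN/3J ‘peak’ mouse 11, against 8.52 to 8.65 in the others. Zfp704 was 7.81 in BPN/3J ‘peak’ mouse 10, against 8.04 to 8.16. Zfp846 was 7.39 in BPH/2J ‘peak’ mouse 6, against 7.54 to 7.61. Zfp950 was 4.66 in BPH/2J ‘peak’ mouse 9, against 4.93 to 5.05.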

How the results depend on the processing

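Of 1159 values for named genes under the alternatives, 1017 kept their direction and side of the threshold, 133 no longer passed, 3 newly passed and 6 changed sign. All 6 were for d of Zfp825 (-0.06, adjusted p = 0.949), which was 0.05 with quantile normalization, 0.07 with the replicate block, 0.14 without the 4 higher-numbered ‘peak’ mice, and lay between -0.15 and 0.02 with single arrays left out. The strain count at ‘peak’ BP was 2 without dim probesets. At ‘trough’ BP it was 0 with median centring, 0 with fits of 2 groups, and 47 with array weights (43 higher), which gave BPN/3J ‘trough’ mouse 3 a weight of 9.44 and the other BPN/3J ‘trough’ mice 0.409 and 0.636. The count in BPH/2J was 22 with median centring, 71 with array weights and 60 without the 4 higher-numbered ‘peak’ mice. In both strains together it was 18, 68 and 52 under the same 3 alternatives. With array weights 2 genes passed in both strain comparisons and 7 for d, and 113 passed in BPN/3J. With median centring the median difference was 0.19 between the strains at ‘trough’ BP and 0.41 between the times in BPN/3J. The cause of these changes was not tested.

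With 1 array left out, the counts ran from 5 to 5 and 0 to 2 for the strains at ‘peak’ and ‘trough’ BP, from 8 to 41 in BPH/2J, from 49 to 83 in BPN/3J, from 8 to 35 in both, and were 0 for both strain comparisons and for d. The medians ran from -0.04 to 0.0, 0.04 to 0.16, 0.13 to 0.21, 0.28 to 0.35 and, for d, -0.16 to -0.08. The mouse numbers were not taken to pair the strains, and residuals of arrays with the same number correlated at -0.3 to 0.19. Few numbers are shared, so these correlations cannot decide whether arrays of the same number were handled together. A replicate block gave 3 genes at ‘peak’ BP (Zfp950 and Zfp991 at adjusted p of 0.124 and 0.0657 in limma), 0 at ‘trough’ BP and a median d of -0.22. Blocks could not be fitted to the time comparisons, whose groups share no numbers.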
